A study of Bos taurus with 4 samples.

Results

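The 6 genes described here act in the storage and breakdown of triglyceride, and they were followed in subcutaneous fat of the Chinese Qinchuan breed of cattle. They were ACSL1 (Bt.46096), LPIN1 (Bt.77412), DGAT2 (Bt.23550), LPL (Bt.5387), LIPE (Bt.28410) and CIDEA (Bt.20167), chosen by name from the headers of the sequence file deposited with the counts. These were 6 of 36373 counted UniGene entries, each of which is 1 transcript sequence standing for a cluster, and each gene had 1 named entry. The library ATFB held tissue of fetuses, labelled as embryos of 200 to 250 days. The adults, 18 to 24 months old by the labels, were bulls in ATAB, heifers in ATAH and castrated males, or steers, in ATAS, and each library is also called here by its animals. Samples of 5 animals per group were pooled into 1 RNA library, so no group had a replicate, and the sex of the fetuses was not given in the labels. Counted reads ranged from 15.3 M in ATFB to 16.1 M in ATAB. Tests on such reads set 1 library against another, not a condition against another, and their intervals cover counting error only.

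White fat cells store energy as triglyceride in a large lipid droplet. Lipoprotein lipase (LPL), on the capillary wall, frees fatty acids from circulating triglyceride, and long-chain acyl-CoA synthetase (ACSL1) activates them inside the cell. Lipin (LPIN1) turns phosphatidate into diacylglycerol, and diacylglycerol acyltransferase (DGAT2) adds the last fatty acid. In fasting or under adrenaline the droplet is broken down, and hormone-sensitive lipase (LIPE) hydrolyses mainly diacylglycerol in that chain. CIDEA sits on the droplet, where it helps droplets to fuse and grow.

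For 4 of these entries, which were named by their headers, the coding stretch around a known motif of the enzyme family is given. Each sequence is shown 5′ to 3′ as deposited by the authors, with the codons of the motif in capitals. They are the fatty acid activating signature of ACSL1, the catalytic phosphatase motif of LPIN1, the acyltransferase motif of DGAT2 and the active-site serine motif of LIPE.
ACSL1: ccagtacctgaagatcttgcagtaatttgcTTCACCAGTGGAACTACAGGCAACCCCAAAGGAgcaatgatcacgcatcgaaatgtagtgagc
LPIN1: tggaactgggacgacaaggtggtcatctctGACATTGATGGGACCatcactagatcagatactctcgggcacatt
DGAT2: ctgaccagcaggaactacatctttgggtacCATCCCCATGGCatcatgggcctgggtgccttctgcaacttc
LIPE: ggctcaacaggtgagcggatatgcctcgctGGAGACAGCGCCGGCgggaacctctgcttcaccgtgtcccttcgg
The capitals cover bases 900 to 932 of the ACSL1 entry, 2382 to 2396 of LPIN1, 597 to 608 of DGAT2 and 1314 to 1328 of LIPE, counted from the first base of each entry. In all 6 entries the annotated coding sequence began with a start codon, ended with a stop codon and held no other stop. It had 699 codons before the stop in ACSL1, 895 in LPIN1, 361 in DGAT2, 478 in LPL, 756 in LIPE and 219 in CIDEA. Most of the CIDEA entry lay outside it, with 23.4% of 2826 bases coding, against 85.8% of 2647 bases in LIPE.

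Levels are given in RPKM, reads per kilobase of the entry scaled by the counted reads of the library, which allows a comparison between genes of different length. All 6 genes had their lowest RPKM in ATFB, and the 3 adult libraries separated them into genes that were lowest and genes that were highest in the steers. LPIN1 had 7.55 RPKM in fetuses, 33.65 in bulls, 117.5 in heifers and 291 in steers. LIPE had 39.9 RPKM in fetuses, 505.5 in bulls, 767 in heifers and 1024 in steers. Both were highest in the steers. DGAT2 had 251 RPKM in fetuses, 3224 in bulls, 2367 in heifers and 1296 in steers. LPL had 180.1 RPKM in fetuses, 566.5 in bulls, 507 in heifers and 304 in steers. Both were highest in the bulls and, among adults, lowest in the steers. ACSL1 had 41.7 RPKM in fetuses, 163 in bulls, 187 in heifers and 96.2 in steers. CIDEA had 26.0 RPKM in fetuses, 159 in bulls, 164 in heifers and 41.9 in steers. For CIDEA, the steers lay closer to the fetuses than to the other adults. By RPKM, DGAT2 ranked 326 among all entries in ATFB and 19, 20 and 29 in bulls, heifers and steers. LPIN1 ranked 9540 in fetuses, 2297 in bulls, 600 in heifers and 212 in steers.

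**Figure D1:**
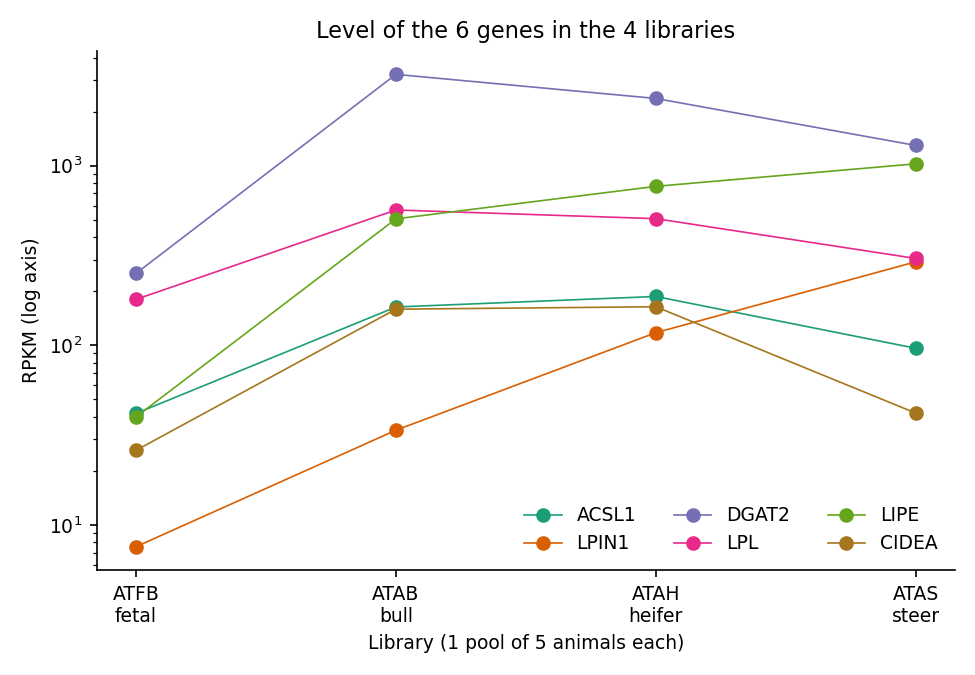
RPKM on a log axis of the 6 genes in each library, 1 point per library and gene with no replicate, where a line only joins the points of 1 gene. Every gene has its lowest point in ATFB, and in ATAS the points of LPIN1 and LIPE are at their highest, 291 and 1024, while CIDEA is back at 41.9.

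The reads behind these values were many, so that counting error was small. The fewest were the 401 reads of LPIN1 in ATFB, and the most were the 129540 reads of DGAT2 in ATAB. Reads covered 97.2% or more of the bases of ACSL1, DGAT2, LPL and LIPE. They covered 89.7% to 98.6% of CIDEA and 85.5% to 91.3% of LPIN1. The last 350 bases of the LPIN1 entry, which follow its coding sequence, matched the unnamed entry Bt.100906 at 99.4% identity. Only reads matched once were counted, but whether reads were matched to the genome or to the entries themselves is not fully stated, so whether reads from this stretch, 10.1% of the entry, are missing is not known. Without the stretch in its length LPIN1 would have 8.40, 37.4, 131 and 324 RPKM in fetuses, bulls, heifers and steers. Its ratios between libraries stay the same by construction, as the reads are unchanged. Bt.100906 had 43596 to 105755 reads, its match to LPIN1 covered 26.5% of its length, and its reads were not added. No other entry shared 100 bases or more with a member at 95% identity.

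Fetal and adult fat were compared to ask how the tissue changes as it begins to store triglyceride. All 3 comparisons share the library ATFB. Against it, 6 of the 6 genes were called higher in bulls, 6 in heifers and 4 in steers, where a call needed a false discovery rate (FDR) of 0.001 or less in an exact binomial test of the reads and a log2 ratio of at least 1 in size. Of all entries tested, 9.51% were called higher in bulls, 13.9% in heifers and 15.5% in steers, and 13.1%, 9.83% and 10.5% were called lower. With edgeR TMM normalization factors, which moved every log2 ratio by 0.18 in bulls, -0.10 in heifers and -0.12 in steers, 11.5% were called higher and 10.1% lower in ATAB. Where a biological coefficient of variation of 0.4 was assumed in place of counting error alone, 0 members were called in ATAB, 0 in ATAH and 2, LPIN1 and LIPE, in ATAS, and 0 between any 2 adult libraries. Of all entries, 0.54%, 0.662% and 0.806% were then called against ATFB and at most 0.0384% between adults. The members were picked with results of these libraries known, so their counts are a description.

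By library totals, DGAT2, LPIN1 and ACSL1 were higher in every adult library than in ATFB. The log2 ratio of DGAT2 to ATFB was 3.68 in bulls (95% interval 3.65 to 3.71), 3.24 in heifers (3.21 to 3.27) and 2.37 in steers (2.34 to 2.40). That of LPIN1 was 2.16 in bulls (1.999 to 2.315), 3.96 in heifers (3.81 to 4.11) and 5.27 in steers (5.13 to 5.42). LPIN1 was thus 38.6-fold higher in the steers than in the fetuses, the widest range of the 6 genes over the 4 libraries. ACSL1 had log2 ratios of 1.97 (1.90 to 2.03), 2.16 (2.10 to 2.23) and 1.21 (1.14 to 1.28) in the same order. Scaled by ACTB, the reference gene of the study's qRT-PCR, ACSL1 was at 0.95 in ATAS and not called.

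The lipases moved by different amounts. LIPE had log2 ratios of 3.66 in ATAB (3.59 to 3.74), 4.27 in ATAH (4.19 to 4.34) and 4.68 in ATAS (4.61 to 4.75). LPL had 1.65 in ATAB (1.62 to 1.69), 1.49 in ATAH (1.46 to 1.53) and 0.76 in ATAS (0.72 to 0.79), the last of which was not called. The droplet protein CIDEA had 2.61 in ATAB (2.52 to 2.70) and 2.66 in ATAH (2.57 to 2.75), but 0.69 in ATAS (0.58 to 0.80), again not called. For LPL and CIDEA in ATAS the interval lay above 0 and below the threshold.

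**Figure D2:**
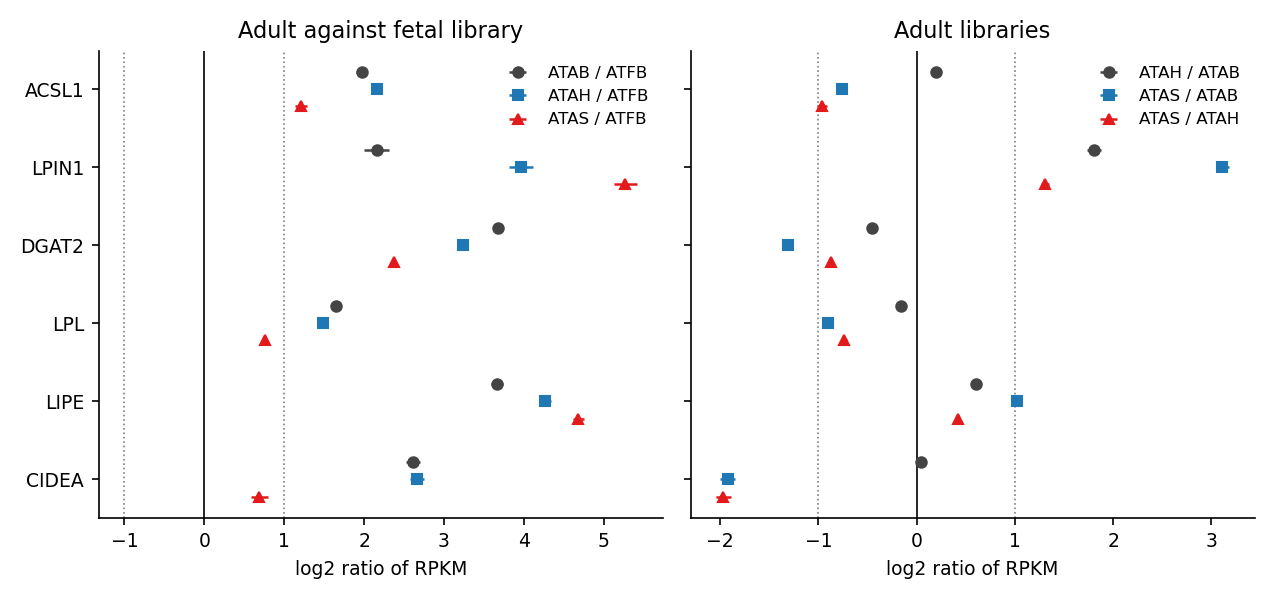
Log2 ratios of RPKM of the 6 genes between each adult library and ATFB (left) and between adult libraries (right), with 95% Clopper-Pearson intervals that cover counting error only, many narrower than their point. Dotted lines mark a log2 ratio of 1 in either direction; in the right panel LPIN1 reaches 3.11 and CIDEA lies at -1.92 and -1.97 for the steers.

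Taken as 3 adult libraries against 1 fetal library, which lets the spread among adults enter the test, 2 of the 6 genes passed edgeR's quasi-likelihood test at an adjusted p of 0.05, as did 18.2% of all entries tested. LIPE was higher in adults by 4.20 on the log2 scale (adjusted p = 0.0111) and DGAT2 by 3.21 (adjusted p = 0.0426) in this edgeR fit. LPIN1, with 4.18, and ACSL1, with 1.83, had adjusted p of 0.0547 and 0.0595 in edgeR. CIDEA, with 2.24, and LPL, with 1.35, had adjusted p of 0.117 and 0.139 in edgeR. The 3 adult libraries differ in sex and castration and are not replicates of 1 group, and only the spread among them was available. Without ATAH 1 gene passed, beside 9.35% of all entries, and DGAT2 had an adjusted p of 0.105 in edgeR. Without ATAB 4 passed, beside 28.3% of all entries, and without ATAS 5 passed, beside 20.8%.

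ATFB also differed in its cell type markers. The 6 adipocyte markers with an entry, of 8 listed, summed to 556.5 RPKM in ATFB and to between 5065 and 6506 in the adult libraries. The 9 fibroblast and preadipocyte markers, of 10 listed, summed to 14490 RPKM in fetuses, 10030 in bulls, 2922 in heifers and 3912 in steers. Most of each sum came from COL1A1, COL1A2, COL3A1 and DCN. PDGFRB went the other way, from 32.5 RPKM in fetuses to 56.6, 70.65 and 97.7 in bulls, heifers and steers. COL3A1 and FN1 were higher in bulls (2903 and 361 RPKM) than in fetuses (1980 and 175). Red cell markers (2 of 6 listed) summed to 2390 RPKM in ATFB and to at most 1.54 in an adult library. Endothelial markers (8 of 8) summed to 362.5 RPKM in ATFB and 374 to 681 in the adult libraries, but they did not move together. VWF rose from 22.3 RPKM in fetuses to 95.8, 142.5 and 182.9 in bulls, heifers and steers. EMCN fell from 110 RPKM to 30.45, 47.5 and 59.3, and PECAM1, KDR and TIE1 were slightly lower in bulls than in fetuses. Leukocyte markers (8 of 8) summed to 125.4 RPKM in ATFB and 211 to 328 in the adults. Of the 6 skeletal muscle markers with an entry, of 10 listed, DES carried most of a sum of 30.6 to 63.2 RPKM. In bulk tissue, fewer fat cells and less RNA per fat cell cannot be told apart, and the part of these differences in the results was not tested.

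The genes were therefore also set against adiponectin (ADIPOQ), a hormone made by fat cells, within each library. ADIPOQ had 261 RPKM in fetuses, 982 in bulls, 1150.0 in heifers and 1498 in steers. The ratio of DGAT2 to ADIPOQ was 0.962 in fetuses, 3.28 in bulls, 2.06 in heifers and 0.865 in steers, so that it did not stay above the fetal value in the steers. LIPE went from 0.153 of ADIPOQ in ATFB to 0.515, 0.667 and 0.683 in bulls, heifers and steers. LPIN1 went from 0.0289 in ATFB to 0.0343, 0.102 and 0.194. LIPE and LPIN1 thus gained on adiponectin in every adult library, while the counting intervals of LPIN1 in ATFB (0.0261 to 0.0320) and ATAB (0.0327 to 0.0359) were nearly adjacent. ACSL1 was at 0.160, 0.166, 0.163 and 0.0642, and its first 3 values overlapped in their intervals. LPL was below its fetal ratio of 0.690 in each adult library, at 0.577, 0.441 and 0.203. CIDEA was at 0.0996, 0.162, 0.142 and 0.0280. Relative to ADIPOQ, then, LPL was highest in the fetal library, and DGAT2, ACSL1, LPL and CIDEA had their lowest values in the steers.

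**Figure D3:**
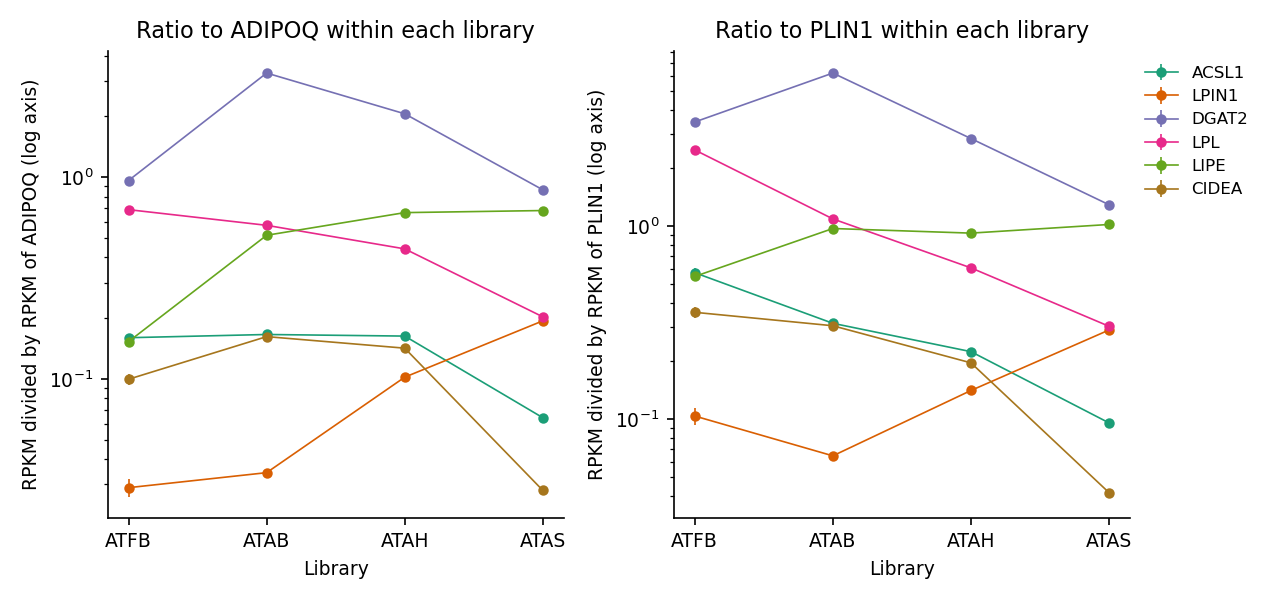
Ratio of each gene's RPKM to that of ADIPOQ (left) and of PLIN1 (right) in the same library, on log axes, with 95% intervals for counting error. LIPE lies between 0.920 and 1.02 of PLIN1 in the 3 adult libraries, whereas LPL goes from 2.48 of PLIN1 in ATFB to 0.303 in ATAS.

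Against perilipin (PLIN1), which coats the droplet and holds back its breakdown, LIPE kept a nearly constant level in adults. The ratio of LIPE to PLIN1 was 0.972 in bulls (95% interval 0.954 to 0.989), 0.920 in heifers (0.907 to 0.934) and 1.02 in steers (1.01 to 1.03), against 0.549 in ATFB (0.517 to 0.582). No other member had an adult range this narrow, and the ratio of CIDEA to PLIN1 went from 0.305 in ATAB to 0.0417 in ATAS.

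Among the adults, the comparisons asked how sex and castration relate to the fat transcriptome. Between ATAS and ATAB, 2 of the 6 genes were called higher in the steers and 2 lower, against 6.86% and 1.87% of all entries tested. LPIN1 was 8.66-fold higher in ATAS than in ATAB, with a log2 ratio of 3.11 (95% interval 3.05 to 3.18). LIPE was just past the threshold, at 1.02 (0.99 to 1.04). CIDEA fell by 1.92 on the log2 scale (interval -1.997 to -1.849) and DGAT2 fell by 1.31 (-1.33 to -1.30). LPL, at -0.90, and ACSL1, at -0.76, were not called. The edgeR TMM factors lowered every log2 ratio of ATAS to ATAB by 0.29, with 3.34% of entries then called higher and 3.45% lower. LIPE was then at 0.72 and lost its call, and LPL, at -1.19, and ACSL1, at -1.06, gained one, so that 1 gene was called higher and 4 lower. With ADIPOQ scaling LIPE was at 0.41, and again 1 gene was called higher and 4 lower, beside 1.74% and 6.75% of all entries.

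Between ATAS and ATAH, whose animals differ in sex and castration, LPIN1 was higher in the steers, with a log2 ratio of 1.31 (1.27 to 1.35), and CIDEA was lower, at -1.97 (-2.04 to -1.89). These were the 2 members called, against 1.52% of all entries called higher and 1.48% called lower. ACSL1 came close to the threshold at -0.96 (-1.01 to -0.91), DGAT2 had -0.87, LPL had -0.74 and LIPE had 0.42. With ADIPOQ scaling LPIN1 was at 0.93 and lost its call. ACSL1 (-1.34), DGAT2 (-1.25) and LPL (-1.12) were then called lower, beside 0.552% of all entries called higher and 4.09% lower. Between ATAH and ATAB, LPIN1 was the 1 member called, at 1.80 (1.73 to 1.88), with 4.14% of entries called higher and 1.23% lower, or 2.05% and 2.15% with TMM factors, which lowered every log2 ratio of this pair by 0.28. LIPE was at 0.60, DGAT2 at -0.45 and LPL at -0.16. CIDEA was at 0.04, with an interval of -0.0027 to 0.09 that included 0, and ACSL1 at 0.20 (0.16 to 0.23). With TMM factors the last pair changed sign, to -0.23 for CIDEA and -0.08 for ACSL1. The order of bulls and heifers for CIDEA and ACSL1 was therefore not settled by these libraries.

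Over the 8252 entries whose adult libraries averaged 10 RPKM or more, the median ratio of the highest to the lowest adult library was 1.43. That ratio was 8.66 for LPIN1, exceeded by 0.606% of these entries, and 3.91 for CIDEA, exceeded by 2.75%. It was 2.49 for DGAT2, 2.03 for LIPE, 1.94 for ACSL1 and 1.86 for LPL, and 7.50% to 19.3% of entries exceeded these. The comparisons among adults also carried other differences. Summed fibroblast and preadipocyte markers were 10030 RPKM in bulls, 2922 in heifers and 3912 in steers. Of these markers PDGFRB rose instead, at 56.6, 70.65 and 97.7 RPKM, and DCN was at 1115, 755 and 1155. Summed leukocyte markers were 221 RPKM in ATAB, 211 in ATAH and 328 in ATAS. Summed endothelial markers were 374 RPKM in bulls, 526 in heifers and 681 in steers, the order of LPIN1 and LIPE. Of these, TEK and ESAM were called higher in ATAS than in ATAB, and both lost the call with TMM factors, at 0.76 and 0.71. The adipocyte marker THRSP, a gene of fat synthesis, had 3188 RPKM in bulls, 1456 in heifers and 597 in steers, and LEP, the hormone leptin, had 128.5, 118 and 74.8. Other adipocyte markers ran the opposite way, with PLIN1 at 520, 834 and 1005 RPKM, ADIPOR2 at 217, 272 and 282, and ADIPOQ lowest in bulls and highest in steers, while CIDEC had its highest value in heifers. Their part in the adult differences was not tested.

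Because both genes of a pair come from the same library, their ratio does not depend on the library total. DGAT2 exceeded LIPE 6.30-fold in ATFB (95% interval 5.97 to 6.64) and 6.38-fold in ATAB (6.29 to 6.47), but 3.09-fold in ATAH (3.05 to 3.13) and 1.27-fold in ATAS (1.25 to 1.28). The balance of this synthetic enzyme and this lipase thus differed by less than counting error between fetuses and bulls and was closer to even in steers. The ratio of LIPE to LPL was 0.222 in fetuses, 0.892 in bulls, 1.51 in heifers and 3.36 in steers. LPIN1 went from 0.212 of CIDEA in ATAB to 6.96 of CIDEA in ATAS, the largest shift of any pair of members between 2 adult libraries. ACSL1 and LPL moved most alike, with ratios between 0.232 and 0.369 in the 4 libraries.

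**Figure D4:**
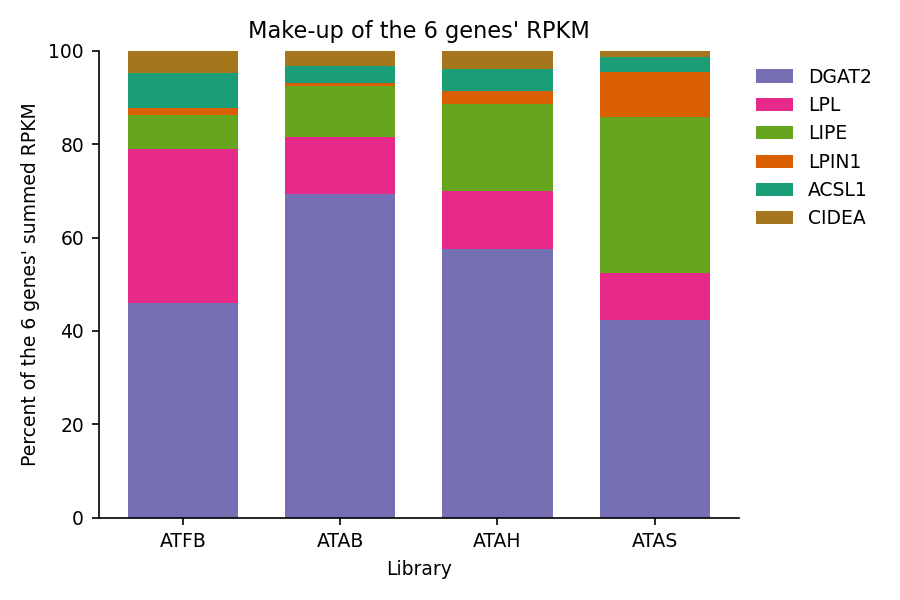
Each gene's share, in percent, of the summed RPKM of the 6 genes in each library. DGAT2 takes 46.0% in fetuses, 69.3% in bulls, 57.6% in heifers and 42.4% in steers, while LIPE takes 7.30%, 10.9%, 18.7% and 33.5%.

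The summed RPKM of the 6 genes was 546 in fetuses, 4652 in bulls, 4109 in heifers and 3054 in steers. LPL made up 33.0% of it in ATFB and 9.97% to 12.3% in the adult libraries. LPIN1 made up 0.723% in ATAB and 9.54% in ATAS.

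The members can be set beside their closest relatives. DGAT1, the other diacylglycerol acyltransferase, had 42.4 RPKM in fetuses, 45.4 in bulls, 66.3 in heifers and 83.0 in steers, and DGAT2 exceeded it 5.92-fold, 71.1-fold, 35.7-fold and 15.6-fold. So the enzymes of the same last step had opposite orders among adults. CIDEC, the CIDE protein of white fat droplets, had 168 RPKM in fetuses, 1470 in bulls, 1743 in heifers and 1607 in steers. The ratio of CIDEA to CIDEC was 0.154 in fetuses, 0.108 in bulls, 0.0940 in heifers and 0.0261 in steers. CIDEC thus did not share the low level of CIDEA in the steers. CIDEB was called lower in every adult library, with 13.9 RPKM in fetuses, 4.78 in bulls, 3.14 in heifers and 5.28 in steers. LPIN3 rose from 3.24 RPKM in ATFB to 7.87, 10.8 and 12.01 in bulls, heifers and steers, and LPIN1 exceeded it 2.33-fold, 4.28-fold, 10.9-fold and 24.3-fold in the 4 libraries.

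A wider list of the pathway held 106 genes, of which 80 had a named entry; the others, such as FABP4, GPAM and PLIN2, were not analysed here. Of the 80, 26 were called higher than ATFB in all 3 adult libraries and 3 lower, against 6.79% and 6.1% of all entries. In single comparisons, 30 were called higher and 6 lower in ATAB, 32 and 4 in ATAH, and 33 and 7 in ATAS, beside 9.51% and 13.1% of all entries in ATAB, 13.9% and 9.83% in ATAH and 15.5% and 10.5% in ATAS. The split depended on the scaling, with 31 and 2 in ATAB under TMM factors, beside 11.5% and 10.1% of all entries. When each library was scaled by ADIPOQ, a choice made after seeing the data, 8 were called higher and 44 lower in ATAB, 7 and 43 in ATAH, and 5 and 48 in ATAS. Of all entries, 1.06%, 1.23% and 0.969% were then called higher and 55%, 53.7% and 58.2% lower, so that the lower calls of the list were near the background. Those called higher in all 3 adult libraries were 26 with TMM factors (7.25% of all entries) and 23 with ACTB scaling (5.06%), FABP5 and CAV2 being among the genes lost, but 3 with ADIPOQ scaling (0.445%). The directions given below are relative to library totals. The median log2 ratio of the list to ATFB, by library totals, was 0.48 in bulls, 0.69 in heifers and 0.88 in steers, beside -0.14, 0.07 and 0.08 over all entries.

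The genes of droplet breakdown showed the highest medians of the 5 roles with more than 2 genes. Of 11 with an entry, 6 were called higher in all 3 adult libraries, and the median log2 ratio was 1.89 in bulls, 2.29 in heifers and 2.14 in steers. PNPLA2, which makes the first cut in triglyceride, had 129.7 RPKM in fetuses, 597 in bulls, 721 in heifers and 529.7 in steers. Unlike LIPE it was not highest in the steers, and the ratio of LIPE to PNPLA2 was 0.307 in fetuses, 0.847 in bulls, 1.06 in heifers and 1.93 in steers. MGLL, which acts on the last fatty acid, rose from 36.3 RPKM to 213, 307 and 275. The glycerol channels AQP7 and AQP3 rose as well, AQP7 from 51.4 to 395, 398 and 350.5 RPKM and AQP3 from 0.693 to 22.2, 36.5 and 44.9 RPKM. ABHD6, another acylglycerol hydrolase, rose from 10.03 RPKM to 29.9, 36.9 and 49.7. HILPDA, an inhibitor of PNPLA2, had 3 reads in ATFB and 131, 47 and 133 in the adult libraries and was called higher in each. LIPA, the lysosomal lipase, was called higher in ATAS with 68.4 RPKM, against 33.1 in ATFB. Its log2 ratio of 1.05 was 0.93 with TMM factors and 0.79 with ACTB scaling, and neither was called.

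In glycerolipid synthesis, 4 of 18 genes were called higher in all 3 adult libraries. AGPAT2, which makes the substrate of LPIN1, had 113 RPKM in fetuses, 1638 in bulls, 1244 in heifers and 382 in steers, and its fall from bull to steer was 2.10 on the log2 scale (interval -2.13 to -2.07). The genes of consecutive steps, AGPAT2 and LPIN1, therefore had opposite orders in the adult libraries. PCK2, AGPAT3 and LPIN3 were the others. GPD1, which supplies glycerol phosphate, had 196 RPKM in ATFB and 567, 544 and 362 in the adult libraries, with the steers at a log2 ratio under 1. PCK1 fell by 1.05 from ATAB to ATAS, from 55.0 to 26.6 RPKM. PLPP1, a membrane lipid phosphatase, was called higher in ATAS than in ATAB, at 183 against 88.8 RPKM, a log2 ratio of 1.04 that TMM factors lowered to 0.75, under the threshold.

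Of 16 genes of fatty acid uptake and activation, 4 were called higher and 2 lower in all 3 adult libraries. CD36, the fatty acid translocase, rose from 181 RPKM to 926, 1097 and 1111. FABP5 rose from 56.1 RPKM to 120, 149 and 156, VLDLR from 3.11 to 15.4, 16.3 and 9.79, and ACSL6 from 1.22 to 2.95, 3.18 and 3.85. SLC27A5 fell from 3.21 RPKM to at most 0.841, and FABP3, the heart and muscle form, from 6.64 to at most 2.96, though with TMM factors FABP3 was at -0.99 in ATAB and lost its call there. FABP5 lost its call in ATAB with ACTB scaling, at 0.86. The other synthetases differed from ACSL1, with ACSL4 at 30.4 to 38.7 RPKM in the 4 libraries and ACSL5 at 28.6 to 44.1, neither of them called against ATFB. ACSL3 was called lower in ATAS, with 10.4 RPKM against 25.3 in ATFB. LMF2 was at 25.8 to 34.0 RPKM and was not called.

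Of 14 lipid droplet genes, PLIN1, CIDEC and CAV2 were called higher and CIDEB lower in all 3 adult libraries, but CAV2 was at 0.99 in ATAS with ACTB scaling and lost that call. PLIN1 had 72.7 RPKM in fetuses, 520 in bulls, 834 in heifers and 1005 in steers. The caveolar genes CAV1 (267 to 396 RPKM) and CAVIN1 (391 to 593.5 RPKM) were not called against ATFB.

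Among 19 genes of the hormonal control of lipolysis, 8 were called higher in all 3 adult libraries. The growth hormone receptor GHR rose from 12.2 RPKM to 127, 152 and 175.5, AKT2, a kinase of insulin signalling, from 22.9 to 86.0, 87.1 and 82.6, and PRKAR2A, a subunit of protein kinase A, from 3.08 to 27.3, 28.6 and 27.3. NPR1, the receptor for natriuretic peptides, rose from 6.72 to 27.2, 38.8 and 47.8 RPKM. Adrenergic receptors of the beta type set lipolysis going through protein kinase A, which acts on LIPE and PLIN1. Of these, ADRB1 had no read in ATFB but 74 reads in bulls, 49 in heifers and 71 in steers, at least 23.3-fold, 16-fold and 23.2-fold higher against a floor of 3 reads. ADRB3 had 19, 2, 4 and 22 reads in the 4 libraries, under 1 RPKM in each. Receptors that hold lipolysis back rose too, ADORA1 from 1.83 RPKM to 12.4, 13.5 and 18.0 and HCAR1 from 1.30 to 3.81, 6.43 and 11.4, while ADRA2A was called lower in ATAB and ATAS. With TMM factors ADRA2A was at -0.90 in ATAB and was not called there. ADCY6 was called higher in ATAB and ATAH only, and PRKAR1A, with 83.0 to 125 RPKM, was not called.

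**Figure D5:**
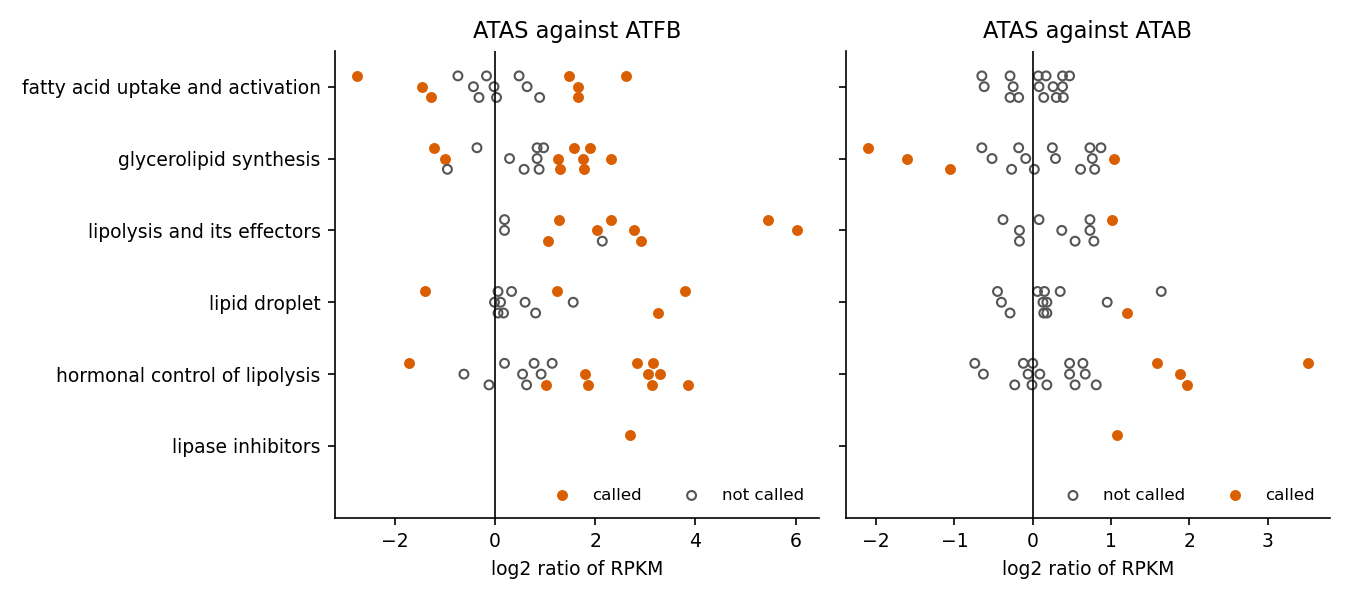
Log2 ratios of RPKM of the pathway genes by role, ATAS against ATFB (76 genes) and ATAS against ATAB (76 genes), with called genes filled; genes with no read in 1 of the libraries are left out (3 and 2). In the right panel most points are open and lie near 0, and 3 genes of glycerolipid synthesis are called lower.

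ANGPTL4, a secreted inhibitor of LPL, had 20.3 RPKM in fetuses, 62.2 in bulls, 152 in heifers and 131 in steers. The ratio of LPL to ANGPTL4 was 8.87 in ATFB and 9.10 in ATAB, and 3.32 in ATAH and 2.33 in ATAS.

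Among the adults, 8 of 78 tested genes of the list were called higher in ATAS than in ATAB and 3 lower, where 6.86% and 1.87% of all entries were. With TMM factors it was 4 and 4, beside 3.34% and 3.45% of all entries. With ADIPOQ scaling it turned to 2 higher and 10 lower, beside 1.74% and 6.75%. Between ATAH and ATAB, 2 of 79 tested were called higher and 1 lower, beside 4.14% and 1.23% of all entries, and 1 and 2 with TMM factors, beside 2.05% and 2.15%. Between ATAS and ATAH it was 1 and 1 of 78 tested, beside 1.52% and 1.48%.

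Named entries whose profile over the 4 libraries was most like each member were sought among 4885 with a mean of at least 10 RPKM, by the root mean square difference of log2(RPKM + 1) after centring each gene on its mean. DGAT2 was nearest to FASN, the fatty acid synthase (0.12), then MAOB (0.14) and XPNPEP2 (0.18). LPL was nearest to pirin (0.04), ADCY6 (0.08) and GPD1 (0.09). ACSL1 was nearest to a monocarboxylic acid transporter (0.07), AGFG2 (0.08) and VLDLR (0.10). LIPE was nearest to tensin (0.06), the glycerol channel AQP3 (0.09) and L-threonine dehydrogenase (0.12). CIDEA was nearest to lanosterol synthase (0.09), the sterol isomerase emopamil binding protein (0.22) and glycine C-acetyltransferase (0.23). LPIN1 had no profile as near as the other members did, its closest being an indoleamine dioxygenase (0.27), SLC7A8 (0.30) and CD5 molecule-like (0.31). Between members, ACSL1 and LPL were closest, at 0.24, and LPIN1 and CIDEA farthest apart, at 1.93. With 4 libraries each value rests on 4 points, so these are descriptions only.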

How the data were processed

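Poly(A) mRNA, isolated from the total RNA of 4 pools (5 cattle each), was sequenced on the Illumina platform. The authors aligned the cleaned reads with SOAPaligner, to the bosTau7 genome by the study's methods, and deposited, per UniGene entry, the count of reads matched once, the percent of bases covered, and the RPKM, which the counts, lengths and totals gave again to within 5.9e-08. How reads were assigned to entries is not given in the sources used here. CASAVA is named in the submitters' processing notes, and versions are not given in the sources used here. The sequences and their headers come from the authors' sequence file. Symbols were found for 5798 entries, from the accession, symbol or full gene name in the header. A further 7432 entries had a description and no symbol, and 23143 were unnamed.

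Reads of 2 libraries were compared by a two-sided exact binomial test given the totals (scipy 1.17.1), with Benjamini-Hochberg adjustment over all entries with a read. Adults against ATFB were fitted with edgeR 4.0.16, using TMM factors, its expression filter and its quasi-likelihood test, with DESeq2 1.42.0 as an alternative. Intervals are exact Clopper-Pearson (95%). Zero reads were taken to allow for 3 at most. Both steps were also run on simulated reads, drawn with counting error only for the pairs and with a common spread for edgeR. Neither setting copies adult libraries that differ in sex and castration, and no result here rests on them. Sequence overlap used blastn 2.17.0.

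Members and lists were chosen with earlier results of these data known. Named genes are, per role, the 4 with most reads and those called in 1 direction in all 3 adult libraries, and the 3 most similar profiles per member. Genes named beside a single comparison or as a member's relative were chosen after their values were seen. Values of some listed genes are not reported here.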

Additional observations from a re-analysis of the deposited data

How the results depend on the processing

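No paired analysis was possible because each group had 1 library. Reads of further entries naming a gene could not be added, since each member had 1 named entry, and the addition by sequence, chosen after seeing the data, found 0 entries that met its rule. The match to RefSeq proteins was not run. The limit of 10 reads changed none of the 36 log2 ratios or their calls. ACTB scaling changed 1 of these calls. TMM factors changed 3 calls, LIPE, LPL and ACSL1 between ATAS and ATAB, and turned 2 directions that were not called, those of ACSL1 (-0.08) and CIDEA (-0.23) between ATAH and ATAB.

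With edgeR's exact test and an assumed biological coefficient of variation of 0.4 in place of counting error alone, 0 members were called in ATAB and ATAH against ATFB and 2 in ATAS, LPIN1 and LIPE, and 0 between adult libraries. Pathway genes called were then 3, 1 and 3 against ATFB and 0 between adults. Test and assumed spread changed together, and the cause was not tested.

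Scaled by ADIPOQ, chosen after seeing the data, the members called higher than in fetuses were 2 in bulls, 3 in heifers and 2 in steers, with 3 called lower in steers, beside 1.06%, 1.23% and 0.969% of all entries called higher and 55%, 53.7% and 58.2% lower. Between ATAS and ATAH 4 members were called, all lower, and 8 pathway genes, 1 of them higher, beside 0.552% of all entries called higher and 4.09% lower. Against ATFB, LPL turned to -0.26 in bulls, -0.65 in heifers and -1.76 in steers, and ACSL1 (-1.32), DGAT2 (-0.15) and CIDEA (-1.83) turned in ATAS. Between ATAH and ATAB, ACSL1 (-0.03) and CIDEA (-0.18) turned. The cause was not tested.

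In the fit of adults against ATFB, where 2 members passed, 4 did with library totals (14.7% of all entries), 4 without the filter (14%), 5 with DESeq2 (21%), and 1 to 5 with 1 adult library left out (9.35% to 28.3%), where 18.2% had passed. All 6 fold changes stayed positive. Without ATAH, DGAT2 no longer passed, and the cause was not tested.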

Other observations

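CIDEA is also known as a gene of brown fat in rodents, so the brown and beige fat markers were read beside it. UCP1, which makes brown fat produce heat, had 0 reads in fetuses, 0 in bulls, 2 in heifers and 1 in steers, where a count of 0 allows up to 3 reads. CIDEA had 1122, 7249, 7218 and 1842 reads in the same libraries. DIO2 had 2 reads in ATAB and 0 in the others. COX8B, a subunit of cytochrome oxidase, had 35.5 RPKM in fetuses, 11.4 in bulls, 7.52 in heifers and 1.70 in steers. EBF2 had 5.82 to 8.82 RPKM. CPT1B, which carries fatty acids into mitochondria, went the other way from COX8B, with 0.874 RPKM in fetuses, 2.54 in bulls, 4.24 in heifers and 5.06 in steers, and was called higher than ATFB in all 3 adult libraries. PPARGC1A, a coactivator of mitochondrial genes, had 1.41, 1.07, 1.34 and 2.26 RPKM in the same order. The 6 markers with an entry, of 10 listed, summed to 44.4 RPKM in ATFB, most of it from COX8B, and to 17.9 to 22.7 in the adult libraries.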
